A study of Mus musculus with 12 samples.

Results

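The enzymes and the carrier that make, take up and degrade prostaglandins were examined in sorted forebrain endothelial cells of mouse embryos that lacked GPR124 or its intracellular domain. The set was 10 genes of the 49315 listed in the count tables: *Ptgs1*, *Ptgs2*, *Ptges*, *Ptges2*, *Ptges3*, *Ptgis*, *Ptgds*, *Tbxas1*, *Slco2a1* and *Hpgd*, matched by their GENCODE vM21 symbols. They were gathered around *Ptges* because its mRNA was among those most reduced in the mutants of these same libraries. The values of *Ptges* in the 3 genotypes are therefore given as a description without a test, and tests and counts refer to the other 9 genes.

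Prostaglandins are short-lived lipid signals made from arachidonic acid, which phospholipases release from membranes. The cyclooxygenases PTGS1 and PTGS2 convert it to prostaglandin H2, and terminal synthases turn this into prostaglandin E2, prostacyclin, prostaglandin D2 or thromboxane A2. The carrier SLCO2A1 brings prostaglandins into cells, where the dehydrogenase HPGD inactivates them. Endothelium is a classic source of prostacyclin, and brain endothelium is known for making the prostaglandin E2 of fever and for clearing prostaglandins from the brain.

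GPR124 is an adhesion G protein-coupled receptor that acts with RECK as a coreceptor for WNT7A and WNT7B in brain endothelium. The RNA-seq comprised 12 libraries from E15.5 forebrains, each from 1 embryo, and each of wild type, *Gpr124*-/- and *Gpr124*ΔC/ΔC gave 4 of them. In the ΔC allele, a V5 tag and a stop codon were inserted by CRISPR/Cas9 after the last transmembrane domain, so that the intracellular domain is missing, and the study describes less of this protein at the cell surface. The *Gpr124*-/- embryos were homozygous for a lacZ null allele. Both alleles were carried by all cells of the embryo, not by endothelium alone, and no embryo was treated. The 2 mutants came from separate intercrosses of heterozygous parents, so genotype and cross cannot be told apart, and the labels give no strain. Cells were sorted as CD31+/CD140b-/CD45-/7-AAD-, which removes pericytes, most leukocytes and dead cells, but platelets also carry CD31. In such bulk samples, fewer cells of a type and less RNA per cell cannot be told apart.

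Each library held 13877572 to 22551163 reads counted on genes, with 13877572 to 16033001 in *Gpr124*ΔC/ΔC embryos and 14987249 to 22551163 in the others. *Adgra2*, the symbol under which *Gpr124* is listed, had 28.3 to 51.1 TPM (transcripts scaled per length and to a common library total) in wild type, 34.1 to 63.4 in *Gpr124*ΔC/ΔC embryos and 4.03 to 6.29 in *Gpr124*-/-. Summed TPM of 6 endothelial markers was 2425 to 4004 over all libraries, and none of these markers was near 0. A single non-coding gene, *Gm23935*, held 12.5% of all TPM in the wild-type embryo JE6 and 14.1% in the *Gpr124*ΔC/ΔC embryo JE3. Labels of the embryos begin with J, K, L or M, the meaning of which is not given in the sources used here. Letter M held only *Gpr124*-/- embryos, and letter K held 1 *Gpr124*-/- embryo, KE4, and 1 wild-type embryo, KE8. Letter J held 2 embryos each of wild type and *Gpr124*ΔC/ΔC, and letter L held 1 wild-type embryo, LE6, and 2 *Gpr124*ΔC/ΔC embryos.

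Levels are given below as the deposited TPM, which is per length. Fold changes are log2 values with their standard error (SE) from edgeR's quasi-likelihood test on the counts, with Benjamini-Hochberg adjustment over the 16637 genes that passed the count filter, as all 10 of these genes did. A gene is described as called where the adjusted p was under 0.05 and the fold change was larger than 1 on the log2 scale. *Gpr124*-/- and *Gpr124*ΔC/ΔC were each compared with the same 4 wild-type libraries, so these 2 comparisons are not independent.

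In *Gpr124*-/-, 3 of the 9 genes other than *Ptges* were called higher than in wild type (*Ptgs1*, *Hpgd* and *Tbxas1*), where 5.67% of all tested genes were, and 1 was called lower (*Ptgis*), where 4.21% were. Of the same 9 genes, 2 were called higher in *Gpr124*ΔC/ΔC (*Ptgs1* and *Hpgd*), against 0.890% of all tested genes. None was called lower there by edgeR, with 0 at an unadjusted p under 0.05, 0 by DESeq2 and 0 by limma, against 1.03% of all genes. Between the mutants, *Ptgs1*, *Hpgd* and *Tbxas1* were called higher in the null, where 2.67% of all genes were, and *Ptgis* was called lower, where 1.94% were. The median log2 fold change of the 9 genes was 0.23, 0.05 and 0.28 in these 3 comparisons, beside −0.01, 0.01 and −0.02 over all tested genes.

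**Figure D1:**
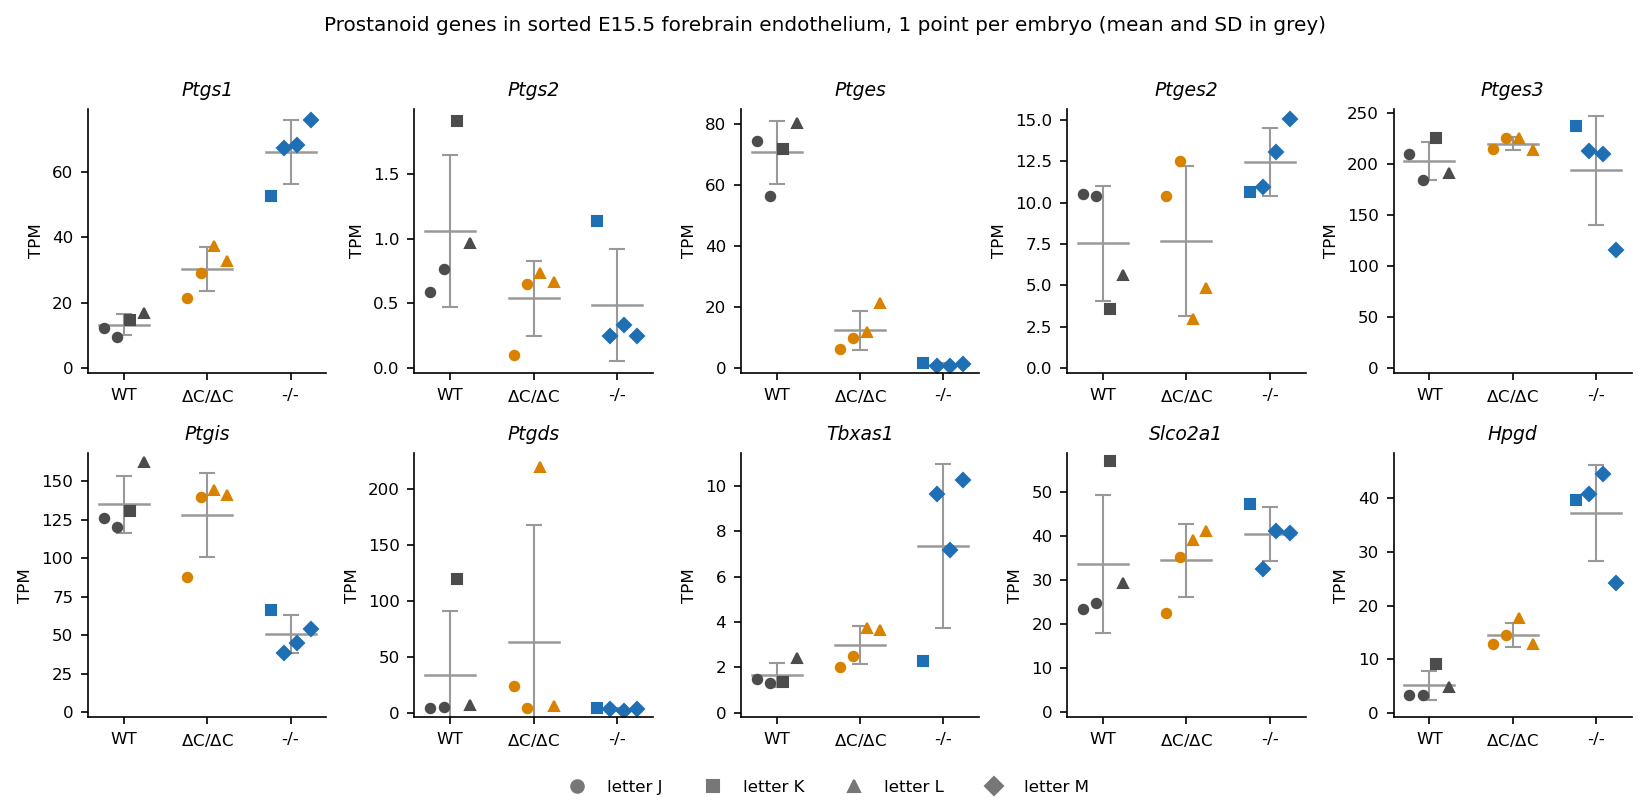
TPM of the 10 genes in each embryo, with 1 point per embryo, genotype on the x axis, the marker shape showing the first letter of the embryo label, and the mean and SD of the 4 embryos in grey. *Ptges* lies between 56.3 and 80.3 TPM in wild type and at or under 1.85 in *Gpr124*-/-, while *Ptgs1* and *Hpgd* are lowest in wild type and highest in *Gpr124*-/- with no overlap between genotypes. The lower SD bars of *Ptgds* run below the axis.

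Sequence upstream of the RefSeq start is shown for *Ptges*, which was lower in both mutants, and for *Ptgs1*, *Hpgd* and *Tbxas1*, which were called higher. Each is the 120 bases before the start from RefSeq on GRCm38.p6, written 5′ to 3′ on the strand of the gene. Those of *Ptges* and *Tbxas1* lie inside the longer gene spans given below, so these are not upstream of the whole span. Capitals mark GC-box letters (GGGCGG or its reverse complement CCGCCC), TCF/LEF letters and TATA-box letters (TATAAA, on either strand).
Ptges, chr2:30903298-30903417, minus strand: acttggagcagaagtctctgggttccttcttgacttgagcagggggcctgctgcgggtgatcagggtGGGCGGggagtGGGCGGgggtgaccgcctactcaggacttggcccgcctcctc
Ptgs1, chr2:36230306-36230425, plus strand: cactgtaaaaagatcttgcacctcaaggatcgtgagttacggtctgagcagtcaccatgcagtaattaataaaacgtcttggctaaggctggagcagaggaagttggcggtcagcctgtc
Hpgd, chr8:56294432-56294551, plus strand: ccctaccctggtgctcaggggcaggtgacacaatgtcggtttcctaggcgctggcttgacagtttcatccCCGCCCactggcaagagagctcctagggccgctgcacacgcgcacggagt
Tbxas1, chr6:38918866-38918985, plus strand: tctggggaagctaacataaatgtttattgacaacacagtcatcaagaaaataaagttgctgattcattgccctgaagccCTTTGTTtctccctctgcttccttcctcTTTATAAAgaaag

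The stretch upstream of *Ptges* had 65.8% G and C and 2 GC boxes, at 53 and 42 bases before the start. That of *Hpgd* had 63.3% G and C and 1 GC box, that of *Ptgs1* had 48.3% and none of the searched letters, and that of *Tbxas1* had 38.3%, TCF/LEF letters and TATA-box letters close to the start. The search covered windows from 250 bases before to 50 bases after the start, on both strands, which 9 of the 10 genes have in the RefSeq table used here. TCF/LEF letters (CTTTG followed by 2 bases that are each A or T) were found for 1 of the 9 genes, *Tbxas1*, and in 16.9% of all 32851 windows. A GC box was found for 5 of the 9 and in 35.7% of all windows, and a TATA box for 3 of the 9 and in 13.6% of all windows. Other motifs (E-box, ETS, EGR, CRE, SOX, FOX, CAAT, GATA and AP1) were looked at while these were chosen and are not reported. A match is a match of letters only, and no occupancy was measured.

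The set begins with the cyclooxygenases. *Ptgs1* encodes cyclooxygenase 1, the constitutive form found in endothelium and platelets (chromosome 2 from 36230426 to 36252272, plus strand, GRCm38). Its TPM was 12.4, 9.64, 14.7 and 16.8 in the wild-type embryos JE1, JE6, KE8 and LE6. It was 21.5, 29.3, 37.5 and 32.7 in the *Gpr124*ΔC/ΔC embryos JE3, JE4, LE2 and LE5. In the *Gpr124*-/- embryos KE4, ME1, ME4 and ME5 it was 52.5, 67.3, 68.2 and 76.0. The 3 genotypes formed 3 separate ranges, with KE4 the lowest of the null embryos but above every *Gpr124*ΔC/ΔC embryo.

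Mean TPM of *Ptgs1* was 13.4 ± 3.08 in wild type, 30.2 ± 6.72 in *Gpr124*ΔC/ΔC embryos and 66.0 ± 9.77 in *Gpr124*-/- (SD, n = 4 each). Against wild type it rose 4.85-fold in *Gpr124*-/- (log2 2.28, SE 0.17, adjusted p = 1.5e-06, edgeR) and 2.13-fold in *Gpr124*ΔC/ΔC (log2 1.09, SE 0.17, adjusted p = 0.00208, edgeR). Between the mutants it was 2.27-fold higher in *Gpr124*-/- (log2 1.18, SE 0.16, adjusted p = 0.00106, edgeR). The *Gpr124*ΔC/ΔC value lay close to the fold threshold, and without the wild-type embryo JE6 it was 0.997 with an adjusted p of 0.00723 (edgeR). Within letter J the mean was 25.4 in *Gpr124*ΔC/ΔC and 11.0 in wild type. Within letter L it was 35.1 in *Gpr124*ΔC/ΔC, beside 16.8 in LE6, the only wild-type embryo there. The values of letter K were 52.5 in KE4 and 14.7 in KE8.

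*Ptgs2* encodes the inducible cyclooxygenase 2 and was sparse in these cells. It had 0.589, 0.767, 1.91 and 0.963 TPM in wild type, 0.107, 0.652, 0.732 and 0.667 in *Gpr124*ΔC/ΔC embryos and 1.13, 0.246, 0.332 and 0.250 in *Gpr124*-/-, in the same order of embryos. The genotypes overlapped, with KE8 and KE4, the pair of letter K, each highest in its genotype. The log2 fold change was −1.15 in *Gpr124*-/- (adjusted p = 0.193, edgeR) and −1.09 in *Gpr124*ΔC/ΔC (adjusted p = 0.444, edgeR) against wild type. Without KE4 the *Gpr124*-/- value was −1.92 with an adjusted p of 0.0276 (edgeR), and with KE4 as the only *Gpr124*-/- embryo it was 0.01.

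The terminal synthases include 3 enzymes that make prostaglandin E2. *Ptges* encodes microsomal prostaglandin E synthase 1, an inducible glutathione-dependent enzyme that works downstream of the cyclooxygenases (chromosome 2 from 30889471 to 30929863, minus strand). Its TPM was 74.3, 56.3, 71.6 and 80.3 in the wild-type embryos. In the *Gpr124*ΔC/ΔC embryos it was 6.37, 10.04, 12.1 and 21.3, and in the *Gpr124*-/- embryos 1.85, 0.763, 0.703 and 1.38. The 3 ranges did not overlap, and the level of *Gpr124*ΔC/ΔC lay between the others in each of its 4 embryos.

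The means were 70.6 ± 10.2, 12.4 ± 6.37 and 1.17 ± 0.543 TPM (SD, n = 4), so that 17.6% of the wild-type mean was present in *Gpr124*ΔC/ΔC and 1.66% in *Gpr124*-/-. These rest on 1448 to 2277 reads per wild-type library, 154 to 439 per *Gpr124*ΔC/ΔC library and 16 to 42 per *Gpr124*-/- library. The fitted log2 fold changes, given without a test, were −5.95 (SE 0.37) in *Gpr124*-/- and −2.61 (SE 0.31) in *Gpr124*ΔC/ΔC against wild type, and −3.35 (SE 0.35) between the mutants. Within letter J the mean was 8.20 TPM in *Gpr124*ΔC/ΔC and 65.3 in wild type. Within letter L it was 16.7 in *Gpr124*ΔC/ΔC, beside 80.3 in LE6, the only wild-type embryo there. The values of letter K were 1.85 in KE4 and 71.6 in KE8.

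*Ptges2* encodes the membrane-associated enzyme also known as microsomal prostaglandin E synthase 2. Its TPM was 10.5, 10.4, 3.57 and 5.62 in wild type, 10.4, 12.5, 2.96 and 4.83 in *Gpr124*ΔC/ΔC embryos and 10.7, 10.9, 13.05 and 15.1 in *Gpr124*-/-. In the first 2 genotypes, embryos of letter J were high and those of letters K and L were low, and all *Gpr124*-/- embryos were above the highest wild-type TPM, although in counts scaled for library size the genotypes overlapped. The log2 fold change was 0.66 in *Gpr124*-/- (SE 0.45, adjusted p = 0.371, edgeR) and −0.03 in *Gpr124*ΔC/ΔC (adjusted p = 0.993, edgeR) against wild type. With the letter as a term, the *Gpr124*-/- value was 1.53 with an adjusted p of 0.026 (edgeR), and this value rests on KE4 and KE8 alone.

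*Ptges3* encodes cytosolic prostaglandin E synthase, which is also the HSP90 cochaperone p23. It was the most abundant of the set, with 184 to 225 TPM in wild type, 214 to 226 in *Gpr124*ΔC/ΔC embryos and 116 to 238 in *Gpr124*-/-, where ME5 was lowest. Its log2 fold change was −0.11 in *Gpr124*-/- (adjusted p = 0.712, edgeR) and 0.05 in *Gpr124*ΔC/ΔC (adjusted p = 0.968, edgeR). A processed pseudogene, *Ptges3-ps*, was listed with 1752 reads over the 12 libraries, so reads of the 2 loci may have been divided by the counting, and the level of *Ptges3* is uncertain to that extent. Of the 3 prostaglandin E synthase genes, neither *Ptges2* nor *Ptges3* was called in any comparison.

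*Ptgis* encodes prostacyclin synthase, a cytochrome P450 of endothelium whose product relaxes vessels and inhibits platelets (chromosome 2 from 167191805 to 167240604, minus strand). The wild-type embryos had 126, 120, 131 and 162 TPM. The *Gpr124*ΔC/ΔC embryos had 87.6, 140, 144 and 141, and the *Gpr124*-/- embryos had 66.6, 38.3, 44.8 and 53.7. All 4 null embryos lay below the other 8, whereas *Gpr124*ΔC/ΔC overlapped wild type and only JE3 stood low. *Ptgis* fell 2.73-fold in *Gpr124*-/- against wild type (log2 −1.45, SE 0.16, adjusted p = 2.56e-05, edgeR) and 2.43-fold against *Gpr124*ΔC/ΔC (log2 −1.28, SE 0.15, adjusted p = 0.000435, edgeR). In *Gpr124*ΔC/ΔC its log2 fold change against wild type was −0.17 (SE 0.15, adjusted p = 0.754, edgeR). In letter K, KE4 had 66.6 TPM and KE8 had 131.

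*Ptgds* encodes lipocalin-type prostaglandin D synthase, which is known from the leptomeninges and choroid plexus. Its TPM was 3.81, 4.91, 119 and 6.82 in wild type, 23.8, 4.14, 219 and 5.79 in *Gpr124*ΔC/ΔC embryos and 4.41, 3.52, 1.34 and 2.78 in *Gpr124*-/-. KE8 and LE2 stood far above all others, followed by JE3, and the remaining 9 embryos lay between 1.34 and 6.82. The log2 fold change was −3.49 in *Gpr124*-/- against wild type (SE 1.42, adjusted p = 0.111, edgeR) and −4.30 against *Gpr124*ΔC/ΔC (adjusted p = 0.0903, edgeR). DESeq2 called both, at −3.48 (adjusted p = 0.0443) and −4.27 (adjusted p = 0.0148), and without KE8 edgeR called the latter at −4.28 (adjusted p = 0.0314). Without LE2, the latter was −2.02 (adjusted p = 0.395, edgeR). Without KE8, the value of *Gpr124*-/- against wild type was −0.83.

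Markers of meningeal fibroblasts and of the choroid plexus were present unevenly in the same libraries. The summed TPM of the fibroblast and meningeal list was 66.4 in KE8 and 5.65 to 12.7 in the other 11 embryos. LE2 (11.6) and JE3 (7.55) lay within that range, so the list as a whole did not follow *Ptgds* there. Of its 6 genes *Slc6a13*, singled out after its values were seen, had 9.02 TPM in KE8, 3.85 in LE2, 0.840 in JE3 and at most 0.262 in the rest. The choroid plexus list, which is mostly *Ttr*, ranged from 32.4 to 1569 TPM, and was highest in JE3 but 146 in LE2. The part of such cells in the *Ptgds* values was not tested.

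**Figure D2:**
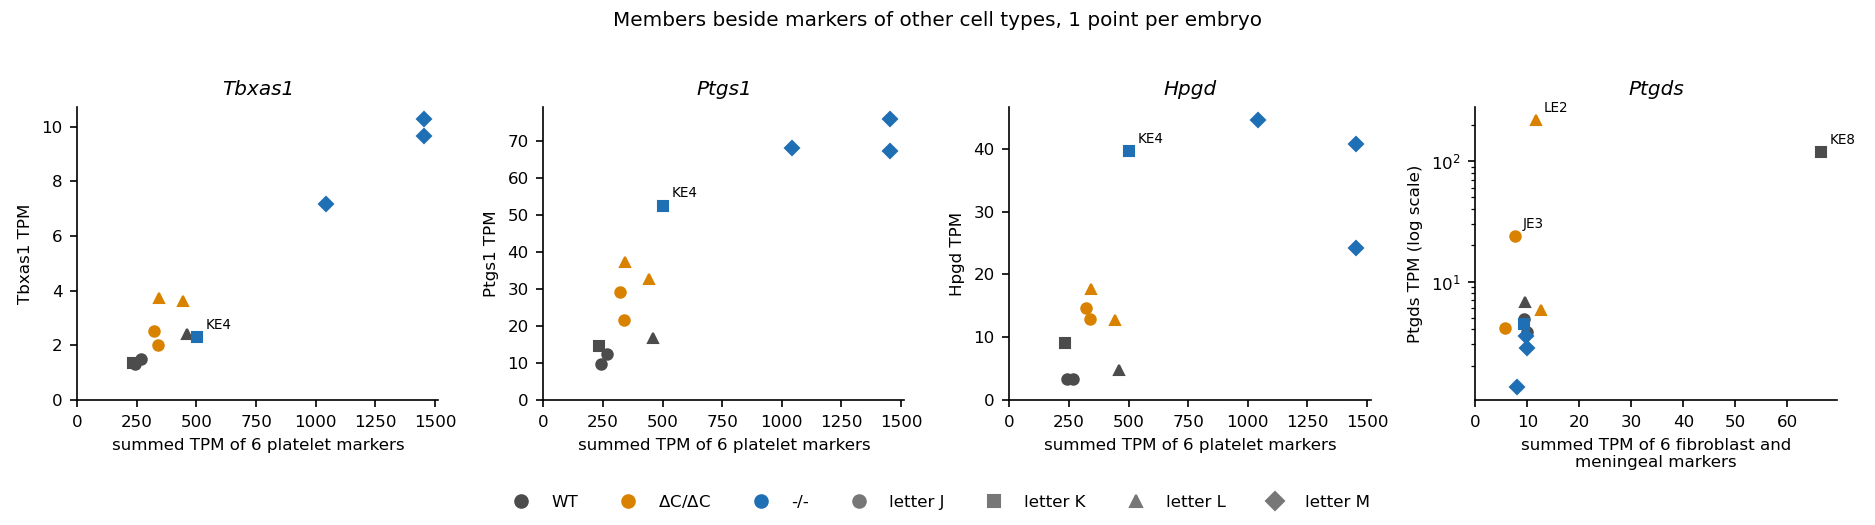
TPM of *Tbxas1*, *Ptgs1* and *Hpgd* (y axes) against the summed TPM of platelet and megakaryocyte markers (x axes), and TPM of *Ptgds* (log axis) against the summed TPM of 6 fibroblast and meningeal markers, with 1 point per embryo, coloured by genotype and shaped by letter. KE4 has the platelet marker sum nearest to wild type among the *Gpr124*-/- embryos (501 TPM) with 2.30 TPM of *Tbxas1* and 52.5 TPM of *Ptgs1*. Of the 3 embryos with the most *Ptgds*, KE8 has the highest fibroblast and meningeal sum (66.4 TPM), while LE2 (11.6) and JE3 (7.55) lie among the other embryos.

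*Tbxas1* encodes thromboxane synthase, an enzyme best known from platelets and macrophages (chromosome 6 from 38875404 to 39084585, plus strand). It had 1.51, 1.31, 1.36 and 2.42 TPM in wild-type embryos and 2.02, 2.51, 3.74 and 3.63 in *Gpr124*ΔC/ΔC. In *Gpr124*-/- it had 2.30 in KE4 and 9.65, 7.17 and 10.3 in ME1, ME4 and ME5. The 3 embryos of letter M lay above all others, and KE4 lay within the range of wild type. *Tbxas1* rose 4.40-fold in *Gpr124*-/- against wild type (log2 2.14, SE 0.39, adjusted p = 0.00182, edgeR) and 2.60-fold against *Gpr124*ΔC/ΔC (log2 1.38, SE 0.38, adjusted p = 0.042, edgeR). In *Gpr124*ΔC/ΔC its log2 fold change against wild type was 0.76 (SE 0.39, adjusted p = 0.426, edgeR).

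With KE4 as the only *Gpr124*-/- embryo, the log2 fold change of *Tbxas1* was 0.38 against wild type (adjusted p = 0.757, edgeR) and −0.37 against *Gpr124*ΔC/ΔC (adjusted p = 0.998, edgeR). In this setting the spread comes from the other genotypes alone, and KE4 is assumed to vary like them, here and wherever a p with KE4 alone is given. With the letter as a term it was 0.71 against wild type (adjusted p = 0.289, edgeR). In letter K, KE4 had 2.30 TPM and KE8 1.36. The call between the mutants was lost without any one of 9 libraries, those other than KE8, LE6 and KE4, at an adjusted p of up to 0.122 (edgeR).

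The summed TPM of 6 platelet and megakaryocyte markers (*Pf4*, *Ppbp*, *Itga2b*, *Gp1bb*, *Gp9* and *Gp6*) was 235 to 461 in wild-type embryos and 320 to 444 in *Gpr124*ΔC/ΔC. In *Gpr124*-/- it was 501 in KE4, 1454 in ME1, 1041 in ME4 and 1452 in ME5. There 5 of the 6 markers were called higher than in wild type (background 5.67% of tested genes). Erythroid markers moved in the same direction, from 5375 to 9094 summed TPM in wild-type embryos and 4020 to 7477 in *Gpr124*ΔC/ΔC to 13375 to 41527 in *Gpr124*-/-. The macrophage and microglia list summed to 4.20 to 12.9 in wild-type embryos and 28.4 to 40.4 in *Gpr124*-/-. *P2ry12* was most of the latter in the embryos of letter M, and *Ptprc*, the gene of CD45, was under 0.1 TPM in every library. *P2ry12* had 8.83 TPM in KE4 and 40.1, 30.3 and 26.4 in ME1, ME4 and ME5, the same division of the null embryos as for the platelet markers. Of this list, only *P2ry12*, *Csf1r* and *Mrc1* passed the count filter. *P2ry12* was called higher than in wild type (log2 2.57, adjusted p = 0.000734, edgeR, background 5.67% of tested genes). *Csf1r* was at 0.04 (adjusted p = 0.973, edgeR) and *Mrc1* at −1.42 (adjusted p = 0.0612, edgeR). Against *Gpr124*ΔC/ΔC, *Mrc1* was called lower (log2 −1.75, adjusted p = 0.0446, edgeR). The part of platelets in the values of *Tbxas1*, *Ptgs1* and *P2ry12* was not tested.

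Uptake and breakdown follow. *Slco2a1* encodes the prostaglandin transporter, which carries prostaglandins into cells. Its TPM was 23.4, 24.8, 57.0 and 29.4 in wild type, 22.6, 35.2, 39.1 and 41.1 in *Gpr124*ΔC/ΔC embryos and 47.4, 32.6, 41.2 and 40.8 in *Gpr124*-/-. The genotypes overlapped, and the wild-type embryo KE8 was the highest of all 12. The log2 fold change was 0.23 in *Gpr124*-/- (SE 0.23, adjusted p = 0.558, edgeR) and −0.05 in *Gpr124*ΔC/ΔC (adjusted p = 0.976, edgeR) against wild type, and both signs depended on the setting.

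*Hpgd* encodes the NAD-dependent dehydrogenase of prostaglandins, which performs the first step of their inactivation (chromosome 8 from 56294585 to 56321043, plus strand, 29.2 Mb from *Adgra2*). It had 3.36, 3.27, 9.04 and 4.70 TPM in wild type. In *Gpr124*ΔC/ΔC it had 12.8, 14.6, 17.7 and 12.8, and in *Gpr124*-/- 39.7, 40.8, 44.6 and 24.2. As for *Ptgs1*, the 3 ranges did not overlap, with KE8 the highest wild-type embryo and ME5 the lowest null embryo. The means were 5.09 ± 2.71, 14.5 ± 2.28 and 37.3 ± 8.98 TPM (SD, n = 4).

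*Hpgd* rose 7.17-fold in *Gpr124*-/- (log2 2.84, SE 0.29, adjusted p = 1.86e-05, edgeR) and 2.71-fold in *Gpr124*ΔC/ΔC (log2 1.44, SE 0.29, adjusted p = 0.0115, edgeR) against wild type. Between the mutants it was 2.64-fold higher in *Gpr124*-/- (log2 1.40, SE 0.28, adjusted p = 0.00771, edgeR). Within letter J the mean was 13.7 TPM in *Gpr124*ΔC/ΔC and 3.31 in wild type. Within letter L it was 15.2 in *Gpr124*ΔC/ΔC, beside 4.70 in LE6, the only wild-type embryo there. The values of letter K were 39.7 in KE4 and 9.04 in KE8. With KE4 as the only *Gpr124*-/- embryo, the fitted log2 value against wild type was 2.87 for *Hpgd* (adjusted p = 0.00419, edgeR), 1.88 for *Ptgs1* (adjusted p = 0.00191, edgeR) and −1.12 for *Ptgis* (adjusted p = 0.0151, edgeR), values of 1 embryo with no spread of its own genotype. No *Gpr124*ΔC/ΔC embryo shared a letter with a *Gpr124*-/- embryo, and with the letter as a term the calls of the 9 genes between the mutants were lost (edgeR).

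**Figure D3:**
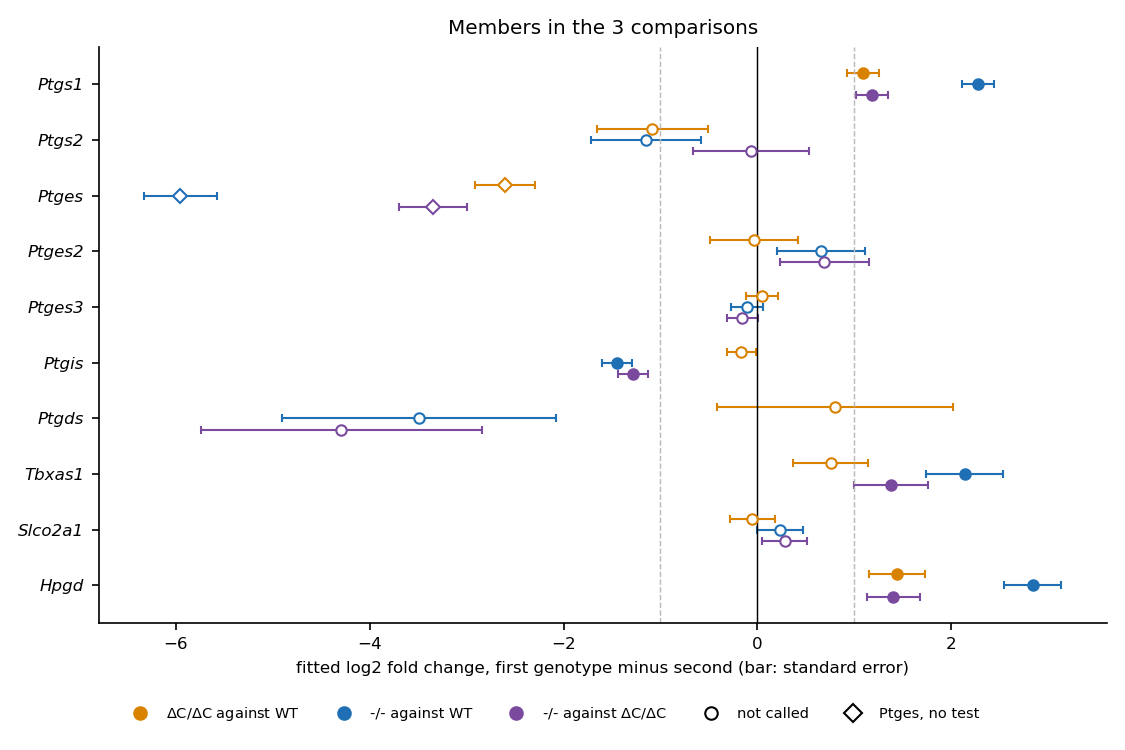
Fitted log2 fold change of each of the 10 genes (x axis, bars are the standard error) in the 3 comparisons, with filled points for called genes, open points for genes not called and diamonds for *Ptges*, which was not tested. *Ptgs1* and *Hpgd* are called in all 3 comparisons, *Ptgis* is called lower in *Gpr124*-/- against both other genotypes, and *Ptges* lies at −5.95 and −2.61 against wild type.

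Mean TPM placed the genes in wild type in the order *Ptges3*, *Ptgis*, *Ptges*, then *Ptgds* and *Slco2a1*, then *Ptgs1*, *Ptges2*, *Hpgd*, *Tbxas1* and *Ptgs2*. The ranges of *Ptges3*, *Ptgis* and *Ptges* did not overlap with each other, while KE8 alone brought *Ptgds* (119) and *Slco2a1* (57.0) into or above the range of *Ptges*. *Slco2a1* lay above *Ptgs1* without overlap, the ranges of neighbours among *Ptgs1*, *Ptges2* and *Hpgd* overlapped, and so did those of *Tbxas1* and *Ptgs2*. In *Gpr124*-/-, *Ptgs1* lay above *Ptgis* in 3 of 4 embryos, and in wild type it lay below *Ptgis* in 4 of 4. In wild type *Ptges* lay above *Hpgd* in 4 of 4 embryos, in *Gpr124*ΔC/ΔC in 1 of 4 (LE5), and in *Gpr124*-/- in 0 of 4. These are comparisons of levels per length between genes within an embryo and were not tested.

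Genes with the most similar pattern were sought among 9988 genes whose mean was 8 or more CPM (counts scaled to a common library size), by the root mean square difference of centred log2 CPM over the 12 libraries. Nearest to *Ptges* were *Slc22a8* (0.31), *Slc38a5* (0.47) and *Slco1c1* (0.48), where *Ptges* itself had an SD of 2.58 over the libraries. All 3 encode transporters of brain endothelium, for organic anions, amino acids and thyroid hormone. *Slc22a8* had 236 to 337 TPM in wild type, 37.7 to 72.1 in *Gpr124*ΔC/ΔC embryos and 4.20 to 13.9 in *Gpr124*-/-, where KE4 was highest, as it was for *Ptges*. Nearest to *Ptgs1* were *Ncald*, *C1qtnf9* and *Gimap4* (0.14 to 0.24), and nearest to *Hpgd* were *S100a10*, *Dse* and *Stc1* (0.34 to 0.37). *Ptgis* was nearest to *Fahd2a*, *Slc3a2* and *Efr3b* (0.19 to 0.21).

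*Tbxas1* was nearest to *Mfsd2b*, *Itgb3* and *Sla* (0.17 to 0.18). *Itgb3* encodes the beta subunit of the platelet fibrinogen receptor, and *Mfsd2b* a sphingosine 1-phosphate exporter of red cells and platelets. *Itgb3* had 17.2 to 42.4 TPM in wild type, 34.6 in KE4 and 117 to 171 in the embryos of letter M, the same division of the null embryos as for *Tbxas1*. These likenesses describe 12 libraries that share genotype, and say nothing of shared function or control.

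**Figure D4:**
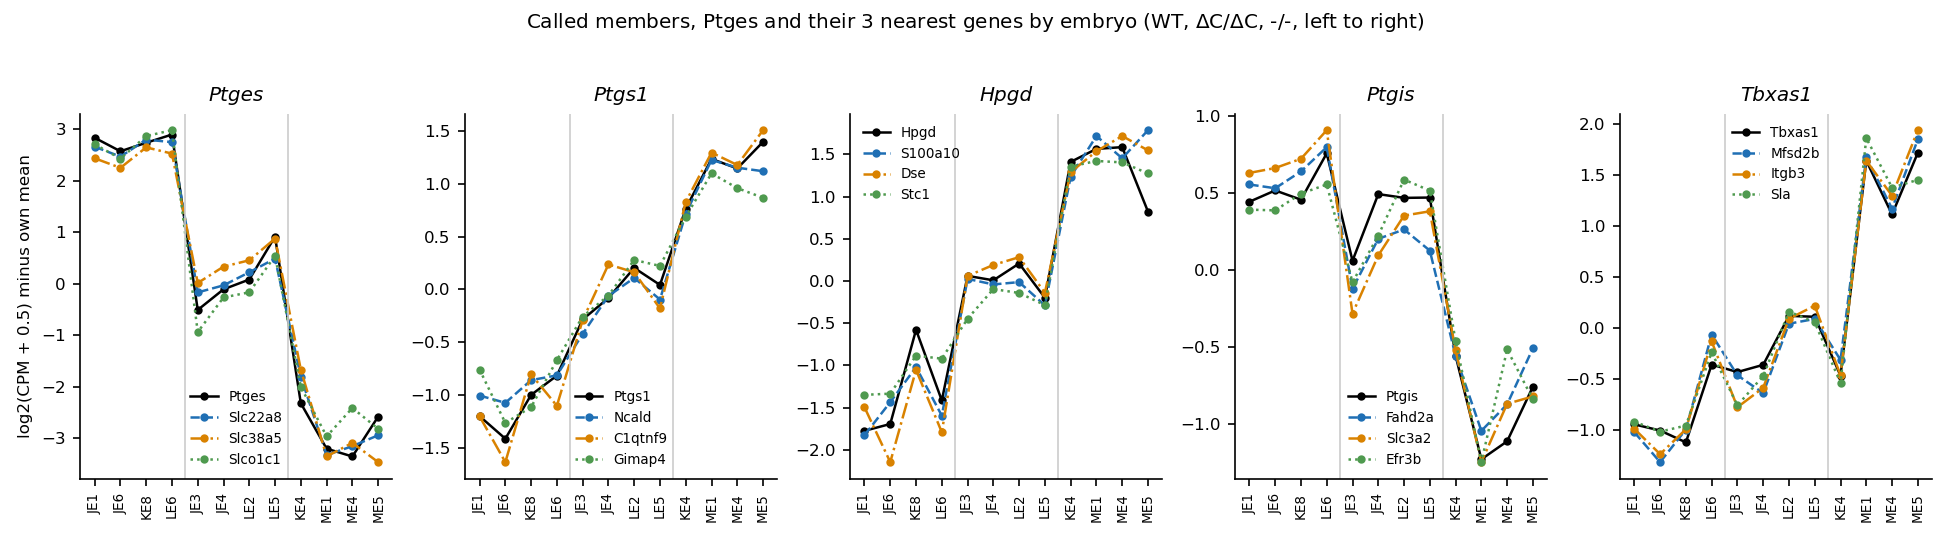
Log2 of CPM with 0.5 added, minus the mean of each gene (y axis), of *Ptges*, *Ptgs1*, *Hpgd*, *Ptgis* and *Tbxas1*, each with its 3 most similar genes, in the 12 embryos (x axis, grouped by genotype). *Ptges* runs with *Slc22a8*, *Slc38a5* and *Slco1c1* in 3 steps, while *Tbxas1* and its neighbours are high only in ME1, ME4 and ME5.

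The position of the genes was not used in their choice. Of the 10 genes, 5 lie on chromosome 2 (*Ptgds*, *Ptges*, *Ptges2*, *Ptgs1* and *Ptgis*), which holds 7.87% of the genes with a read. *Ptges* lies 1.47 Mb from *Ptges2*, 5.30 Mb from *Ptgs1* and 5.42 Mb from *Ptgds*. Of these 3, *Ptgs1* was called higher in both mutants. The counting is not stated to use strand, and *Ptgs1*, *Ptgis* and *Tbxas1* each overlap an antisense gene by 144 to 156 bases. The antisense genes were listed with 16 to 58 reads over all 12 libraries.

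The wider pathway was taken from lists of 73 further genes, written from general knowledge of eicosanoids with results of these data on *Slc22a8* and *Slco1c1* known. Of these, 47 passed the count filter, which a gene can pass through the libraries of 1 genotype, so counts over the 47 describe the lists and support no direction. Against wild type, 9 were called higher and 8 lower in *Gpr124*-/-, beside 5.67% and 4.21% of all tested genes. The ΔC/ΔC embryos had 1 called higher and 3 lower, beside 0.890% and 1.03% of all tested genes. Between the mutants, 6 were called higher and 5 lower in *Gpr124*-/-, beside 2.67% and 1.94%. Of the 9 called higher in the null against wild type, *Cysltr1* and *Ltb4r2* were still called with the letter as a term, where the contrast rests on KE4 and KE8, and *Cysltr1* with KE4 as the only *Gpr124*-/- embryo. *Ltb4r2* was at 3.36 (adjusted p = 0.0327, edgeR) with the letter, with 4 reads in KE8 against 15 to 30 in the other wild-type embryos, and at 1.07 (adjusted p = 0.639, edgeR) with KE4 alone. Of the 8 called lower, 4 and 5 were still called, *Ptgfrn*, *Slc22a8* and *Slco1c1* under both settings. The median log2 fold change of the 47 was −0.08, 0.06 and 0.04 in the 3 comparisons, and 29 were called in none.

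Of the 10 listed genes of prostaglandin receptors and a partner protein, 6 passed the filter, and in *Gpr124*-/- 4 were called higher than in wild type and 1 lower (background 5.67% and 4.21% of tested genes), while in *Gpr124*ΔC/ΔC edgeR called 0 of them, with 1 at an unadjusted p under 0.05 and 0 by DESeq2 or limma. *Tbxa2r*, the thromboxane receptor of platelets and vessels, had 28.3 to 38.9 TPM in wild type, 31.2 to 56.0 in *Gpr124*ΔC/ΔC, and 65.3 in KE4 beside 112, 96.3 and 123 in ME1, ME4 and ME5. It rose 2.92-fold in *Gpr124*-/- (log2 1.55, SE 0.20, adjusted p = 0.000132, edgeR), and KE4 was above all wild-type and *Gpr124*ΔC/ΔC embryos. With the letter as a term the value was 0.76 (adjusted p = 0.128, edgeR), and with KE4 alone 0.87 (adjusted p = 0.0636, edgeR).

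*Ptgir*, the prostacyclin receptor, rose by 1.82 on the log2 scale in *Gpr124*-/- against wild type (adjusted p = 0.011, edgeR). The receptors of prostaglandin E2 *Ptger3* and *Ptger4* rose by 2.03 (adjusted p = 0.00756) and 2.26 (adjusted p = 0.00394). All 3 were sparse, with at most 168 reads in a library, and KE4 stood apart from the embryos of letter M. *Ptgir* had 1.56 TPM in KE4 and 5.63 to 8.26 in letter M, against 0.825 to 2.14 in wild type, and *Ptger3* had 0.608, 1.80 to 3.0 and 0.267 to 0.672 in the same 3 sets. None of the 3 calls held with the letter as a term or with KE4 alone, where *Ptgir* was at −0.36 and −0.022, *Ptger3* at 0.083 and 0.20, and *Ptger4* at 1.63 and 0.64 (adjusted p of at least 0.332, edgeR). The platelet marker sums given with *Tbxas1* divide the null embryos in the same way, and their part in these values was not tested. The fitted value of *Ptger1* was 0.24 (log2, adjusted p = 0.768, edgeR), and *Ptger2*, *Ptgdr*, *Ptgdr2* and *Ptgfr* did not pass the filter.

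*Ptgfrn* encodes a membrane partner known as a negative regulator of the prostaglandin F2 alpha receptor. It had 15.1, 13.9, 13.5 and 12.97 TPM in wild type, 7.95, 7.93, 6.77 and 8.43 in *Gpr124*ΔC/ΔC embryos and 3.47, 1.81, 1.77 and 1.53 in *Gpr124*-/-. The 3 genotypes formed 3 separate ranges. *Ptgfrn* fell 6.72-fold in *Gpr124*-/- (log2 −2.75, SE 0.22, adjusted p = 2.51e-06, edgeR), and in *Gpr124*ΔC/ΔC its log2 fold change was −0.91 (SE 0.21, adjusted p = 0.025, edgeR), which is past the test but under the fold threshold.

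Of 8 other carriers that accept prostaglandins, 5 passed the filter, and 3 were called lower in *Gpr124*-/- and 2 in *Gpr124*ΔC/ΔC against wild type (background 4.21% and 1.03%). *Slc22a8*, the organic anion transporter OAT3, had log2 fold changes of −5.42 (adjusted p = 3.93e-07, edgeR) in *Gpr124*-/- and −2.53 (adjusted p = 0.000335, edgeR) in *Gpr124*ΔC/ΔC. *Slco1c1*, the thyroid hormone carrier OATP1C1, had −5.29 (adjusted p = 3.97e-07, edgeR) and −2.88 (adjusted p = 0.000134, edgeR). These 2 were on the list with their fall already known. *Slco2b1* was at 185 to 272 TPM in wild-type embryos and 73.8 to 121 in *Gpr124*-/-, and fell by 1.29 on the log2 scale (SE 0.18, adjusted p = 0.000219, edgeR).

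Arachidonate release begins the pathway. Of 22 genes on this list 12 passed the filter, and in *Gpr124*-/- *Dagla* and *Pla2g16* were called lower than in wild type (background 4.21%). None was called higher by edgeR (background 5.67%), with 2 higher at an unadjusted p under 0.05 and 0 by DESeq2 or limma. *Dagla*, which makes the endocannabinoid 2-arachidonoylglycerol, had 3.77 to 5.53 TPM in wild type, 1.58 to 3.22 in *Gpr124*ΔC/ΔC embryos and 1.01 to 1.57 in *Gpr124*-/-. Its log2 fold change was −1.74 (SE 0.22, adjusted p = 0.000114, edgeR) in *Gpr124*-/- and −1.07 (SE 0.22, adjusted p = 0.0124, edgeR) in *Gpr124*ΔC/ΔC, where it was the 1 gene of the list called (background 1.03% lower), close to the fold threshold and lost in 8 of 24 alternatives. With the letter as a term the *Gpr124*-/- value of *Dagla* was −1.47 and no longer called (adjusted p = 0.0609, edgeR). The call of *Pla2g16* in *Gpr124*-/- was lost in 13 of 23 alternatives. *Pla2g4a*, the cytosolic phospholipase A2 that supplies cyclooxygenases, had 2.29 to 4.52 TPM in wild type, 1.48 to 4.06 in *Gpr124*ΔC/ΔC embryos and 2.0 to 2.41 in *Gpr124*-/- and was called in no comparison.

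Among 8 other synthases and reductases, 7 passed the filter, and against wild type 1 was called higher in *Gpr124*-/- (background 5.67%) and 0 lower by edgeR, DESeq2 or limma, also at an unadjusted p under 0.05. This was *Cbr3*, a carbonyl reductase, with 2 to 5 reads a library in wild type, 2 to 8 in *Gpr124*ΔC/ΔC embryos and 13 to 20 in *Gpr124*-/-. It reached the count minimum of 10 only in the genotype where it was high, so its fitted value of 2.34 (log2, adjusted p = 0.00246, edgeR) supports no direction. The call was lost with the letter as a term (adjusted p = 0.295, edgeR) and with KE4 alone (adjusted p = 0.168, edgeR). All 3 further breakdown enzymes passed the filter and 0 were called in *Gpr124*-/- against wild type by edgeR, DESeq2 or limma, although 2 of them had an adjusted p under 0.05 for lower values under the fold threshold (background 5.67% called higher and 4.21% lower). In the same comparison, none of the 3 tested genes of the epoxygenase branch was called by these tools, with 2 lower at an unadjusted p under 0.05. At these background shares, 0 of 3 genes is no result about either list.

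The leukotriene and lipoxygenase list had 11 tested genes of 15, of which 4 were called higher and 2 were called lower in the null than in wild type (background 5.67% and 4.21%). *Alox12*, the arachidonate 12-lipoxygenase of platelets, had 17.8 to 32.1 TPM in wild type, 49.5 in KE4 and 161, 130 and 194 in ME1, ME4 and ME5, and rose 5.32-fold (log2 2.41, SE 0.34, adjusted p = 0.000244, edgeR). With the letter as a term this was 0.81 (adjusted p = 0.0913, edgeR), and with KE4 alone 0.90 (adjusted p = 0.0877, edgeR). The platelet marker sum was likewise lower in KE4 (501 TPM) than in letter M (1041 to 1454), against 235 to 461 in wild type, and its part in the values of this list was not tested. *Cysltr1*, a receptor of cysteinyl leukotrienes, had 0.424 to 0.586 TPM in wild-type embryos and 3.13 to 6.34 in *Gpr124*-/-, KE4 included, and rose 8.37-fold (log2 3.07, SE 0.32, adjusted p = 2.28e-05, edgeR). The leukotriene B4 receptors *Ltb4r2* (log2 2.30, adjusted p = 0.00675) and *Ltb4r1* (log2 1.36, adjusted p = 0.0478) were also called, the latter lost or reversed in 17 of 22 alternatives.

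*Ltc4s*, which conjugates glutathione to make leukotriene C4, fell by 2.06 on the log2 scale (adjusted p = 0.0036, edgeR). *Ggt1*, which removes glutamate from it, fell by 2.94 (adjusted p = 0.00118, edgeR). Both were sparse. *Ltc4s* had 20 to 39 reads a library in wild type and 2 to 10 in *Gpr124*-/-, and *Ggt1* had 39 to 51 and 1 to 14. With the letter as a term, where the contrast rests on KE4 and KE8, edgeR called neither, at −2.19 for *Ltc4s* and −2.66 for *Ggt1*. With KE4 alone the values were −2.03 and −2.59. The called gene of this list in *Gpr124*ΔC/ΔC was *Alox8* (log2 2.05, adjusted p = 0.0462, edgeR), at no more than 27 reads in a library, and this call was lost in 13 of 19 alternatives. *Alox8* had 5 to 7 reads in the wild-type libraries and reached the count minimum of 10 only in mutant libraries, so its fitted value supports no direction.

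**Figure D5:**
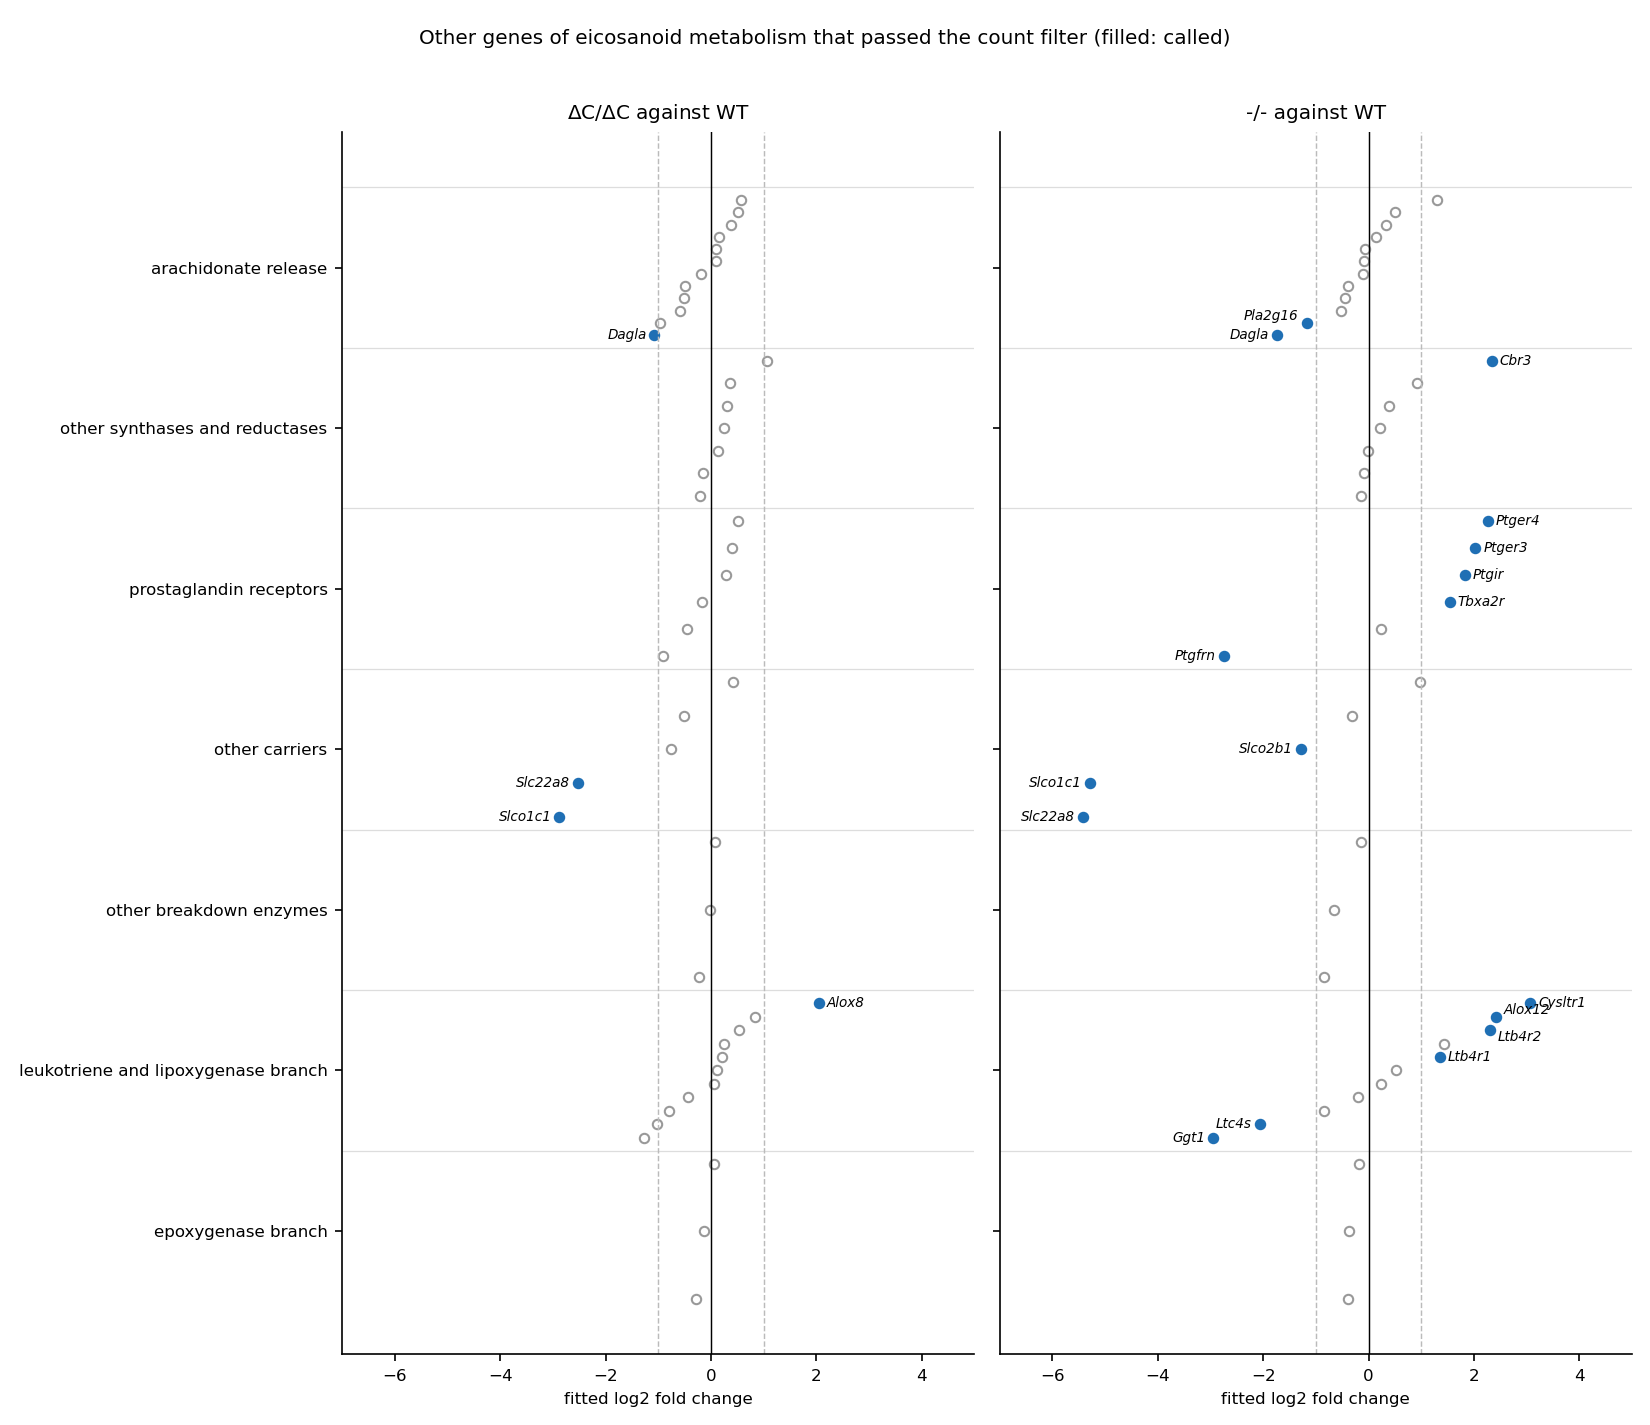
Fitted log2 fold change (x axis) of the 47 tested genes of 7 eicosanoid lists (y axis) in *Gpr124*ΔC/ΔC (left) and *Gpr124*-/- (right) against wild type, ordered within each list by value, with filled and named points for called genes. In *Gpr124*-/- 9 of the 47 genes are called higher and 8 lower (background 5.67% and 4.21% of tested genes), and in *Gpr124*ΔC/ΔC 1 and 3 (0.890% and 1.03%).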

How the data were processed

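RNA of sorted cells was isolated with the PicoPure kit, amplified with SMART-Seq V4 and sequenced in paired ends by Genewiz. The submitters' processing notes name bcl2fastq 2.17 and mm10, and the aligner, counter and strand setting are not given in the sources used here. The authors deposited counts, the unnormalized reads per gene of each library, and TPM, which they made from these counts and gene lengths.

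Counts of all 12 libraries were fitted with edgeR 4.0.16 in R 4.3.3 (filterByExpr by genotype with a count minimum of 10, TMM, quasi-likelihood test, genotype as term), after tests on simulated data. The 4 embryos per genotype limit the precision, and genes with few reads carry counting error. Calls needed an adjusted p below 0.05 and a change of more than 1 on the log2 scale in either direction. Similar genes were ranked on log2 CPM, to which a prior count of 2 was added. Every one of the 10 genes was named, with the called genes of the pathway lists and 3 similar genes each for the 5 genes that were lower or called. The genes, lists and tests were chosen with earlier results of these data known.

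Alternatives were upper-quartile factors, no filter, a mean of at least 50 counts, the label letter as a term, DESeq2 1.42.0, limma 3.58.1 on log2(TPM + 1) and log2(TPM + 0.1), only 2 genotypes per fit, no fold threshold, and each library left out. Added after seeing the data were KE4 as the only *Gpr124*-/- embryo, KE8 and LE2 left out together, and letter J alone.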

Additional observations from a re-analysis of the deposited data

Results flagged for a closer look

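Groups of 4 embryos were checked for a single embryo far from the other 3, by the share of the group's range that the gap takes up above Dixon's critical value. Chance marks about 1 in 20 groups, and 8 of 87 groups (9.20%) were marked here.

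*Ptgds* was marked in 2 genotypes, in wild type for KE8 (0.974, with 119 TPM against 3.81 to 6.82 in the others) and in *Gpr124*ΔC/ΔC for LE2 (0.909, with 219 TPM against 4.14 to 23.8). *Ptgs2* was marked in *Gpr124*ΔC/ΔC for a low JE3 (0.872, 0.107 TPM against 0.652 to 0.732) and in *Gpr124*-/- for a high KE4 (0.903, 1.13 TPM against 0.246 to 0.332). *Ptgis* was marked in *Gpr124*ΔC/ΔC for a low JE3 (0.927, 87.6 TPM against 140 to 144), the library in which *Gm23935* held 14.1% of all TPM. KE4 was also the high embryo of *Gpr124*-/- for *Ptgfrn* (0.858, 3.47 TPM against 1.53 to 1.81) and for *Slc22a8* (0.851, 13.9 TPM against 4.20 to 5.65), and JE1 was the low wild-type embryo for *Cysltr1* (0.851, 0.424 TPM against 0.562 to 0.586). No cause of these values was tested.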

How the results depend on the processing

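Of 621 log2 fold changes of the 9 genes other than *Ptges* under the alternatives, 556 kept direction and side of the thresholds and 36 changed sign. Against wild type in *Gpr124*-/-, 4 of the 9 genes other than *Ptges* were called, and 4 to 5 with each embryo left out (5 without KE4). In *Gpr124*ΔC/ΔC, 2 were called, and 1 to 2 with each left out (1 without JE6). Between the mutants 4 were called, 3 to 5 with each left out, but 0 with the letter as a term and 0 with KE4 as the only *Gpr124*-/- embryo, which both leave 1 *Gpr124*-/- embryo to carry the contrast.

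Of the wider pathway, 17 genes were called in *Gpr124*-/- against wild type (15 to 17 with each embryo left out), but 10 at a mean of at least 50 counts, 8 with the letter as a term and 8 with KE4 alone. In *Gpr124*ΔC/ΔC 4 were called (2 to 4 with each left out, 2 without LE6 or LE2), 2 in each of the 3 limma fits, 2 without KE8 and LE2, 2 in letter J alone and 7 with no fold threshold. Between the mutants 11 were called (8 to 14 with each left out), 7 at a mean of at least 50 counts, 2 with the letter, 7 with limma on log2(TPM + 1), 6 with limma and no filter and 1 with KE4 alone.

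Among these 9 genes, sign changes were in uncalled values except for *Tbxas1* between the mutants (−0.37 with KE4 alone). In the wider pathway, the called *Ptgir* (to −0.36) and *Ltb4r1* (to −0.40) also changed sign in *Gpr124*-/- against wild type. In this comparison, *Ptges3* was 0.0318 with the letter, 0.12 with KE4 alone and −0.20 to 0.073 with each embryo left out, *Ptgs2* was 0.009 with KE4 alone, and *Slco2a1* was −0.31 with the letter. In *Gpr124*ΔC/ΔC, *Ptges2* was 0.003 with upper-quartile factors, 0.0039 without KE8 and LE2, 0.0685 in letter J and −0.32 to 0.24 with each left out. *Slco2a1* was 0.25 with the letter, 0.09 to 0.10 with limma (0.0928 and 0.0965), 0.27 without KE8 and LE2, 0.18 in letter J and −0.20 to 0.30 with each left out. *Ptges3* ranged from −0.0147 to 0.0783 and *Ptgds* from −1.48 (without LE2) to 3.44 (without KE8). Between the mutants, *Ptges3* was 0.0854 with KE4 alone and −0.24 to 0.025 with each left out, *Slco2a1* was −0.56 with the letter, and *Ptgs2* was 0.0031 with the letter, 1.104 with KE4 alone, 0.10 without KE8 and LE2 and −0.84 to 0.15 with each left out. The cause of the other changes was not tested. No paired analysis was possible because the labels carry no replicate numbers, and the letter, whose meaning is not given, was tried as a term.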
